A study of Mus musculus with 24 samples.

Results

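The miR-23, miR-27 and miR-24 family was followed in soleus muscle of male mice that overexpress a nuclear receptor in muscle. Its members were chosen by assay name, as the miR-23a, miR-23b, miR-27a, miR-27b, miR-24 and miR-24-2* assays and not those of the other opposite strands, which left 6 of the 584 microRNA assays on the cards, some of which are rat assays: mmu-miR-23a, mmu-miR-23b, mmu-miR-27a, mmu-miR-27b, mmu-miR-24 and mmu-miR-24-2*, written here without the prefix for mouse. The animals were 12 weeks old and fell into 4 groups of 3. MCK-PPARa mice overexpress PPARa in muscle, and NTGa mice are their wild-type littermates. MCK-PPARb mice overexpress PPARb in muscle, and NTGb mice are theirs. MCK is the usual short form of muscle creatine kinase, whose promoter is active in skeletal and heart muscle. The sources used here do not give founder lines, transgene levels or pooling of animals, so each transgene was treated as 1 line. The replicates are labelled biological, and no other allele or agent is named.

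MicroRNAs are short RNAs cut from hairpins in longer transcripts, and each guides silencing proteins to mRNAs that pair with its bases 2 to 8, the seed. The 3 hairpins of each cluster lie side by side and can be cut from 1 primary transcript. In the muscle literature miR-23a is known to repress the atrophy ubiquitin ligases Fbxo32 and Trim63, miR-27b the muscle progenitor factor Pax3, and miR-24 is known for promoting myoblast differentiation. MiR-27a and miR-27b are also known to repress Pparg in fat cells, and miR-27b to act on Ppara in liver cells, which places the family among microRNAs that act on the receptor class overexpressed here.

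The mature sequences are shown because they set what an assay can tell apart. They come from RefSeq (GRCm38.p6), where 5 of the 6 assays matched a mature sequence, and capitals mark the seed.
miR-23a-3p: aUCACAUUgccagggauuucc
miR-27a-3p: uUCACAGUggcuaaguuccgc
miR-27b-3p: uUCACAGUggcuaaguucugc
miR-24-3p: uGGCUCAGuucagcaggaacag
miR-24-2-5p: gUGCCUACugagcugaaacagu
miR-24-1-5p: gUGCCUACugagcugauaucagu
MiR-27a-3p and miR-27b-3p share their seed and differ at 1 base, C19U, counted from the 5′ end of miR-27a-3p. The miR-24-3p sequence is cut from both clusters, so the miR-24 assay cannot tell which cluster its template came from. The strand opposite to it differs: miR-24-2-5p, read by the miR-24-2* assay, and miR-24-1-5p share their first 16 bases and their seed, and differ in length and in their 3′ ends. MiR-24-2* and miR-27a therefore stand for chromosome 8 and miR-27b for chromosome 13, as far as each assay reads only its own sequence, which was not tested.

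MiR-23a (chr8:84208563-84208583), miR-27a (chr8:84208727-84208747) and the hairpin of miR-24-2 (chr8:84208815-84208921) lie on the plus strand within 404 bases. The annotation places no other gene over the hairpins of miR-23a and miR-27a, and the microRNA gene Mir3074-2 over that of miR-24-2. The hairpins of miR-23b, miR-27b and miR-24-1 span 792 bases of the plus strand of chromosome 13, inside the protein-coding gene Aopep, and the microRNA gene Mir3074-1 overlaps that of miR-24-1. There, miR-27b lies at chr13:63300760-63300780 and the miR-24-1 hairpin at chr13:63301208-63301275. Whether that place is exonic or intronic is not given by the annotation used here, which is by gene. The hairpins that carry miR-24 are shown with both arms in capitals, since both give the same 3′ arm.
Mir24-2: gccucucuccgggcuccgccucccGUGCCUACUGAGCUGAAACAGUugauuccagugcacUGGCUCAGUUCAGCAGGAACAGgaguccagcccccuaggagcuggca
Mir24-1: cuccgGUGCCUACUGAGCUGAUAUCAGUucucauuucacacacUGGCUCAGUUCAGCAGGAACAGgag

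**Figure D1:**
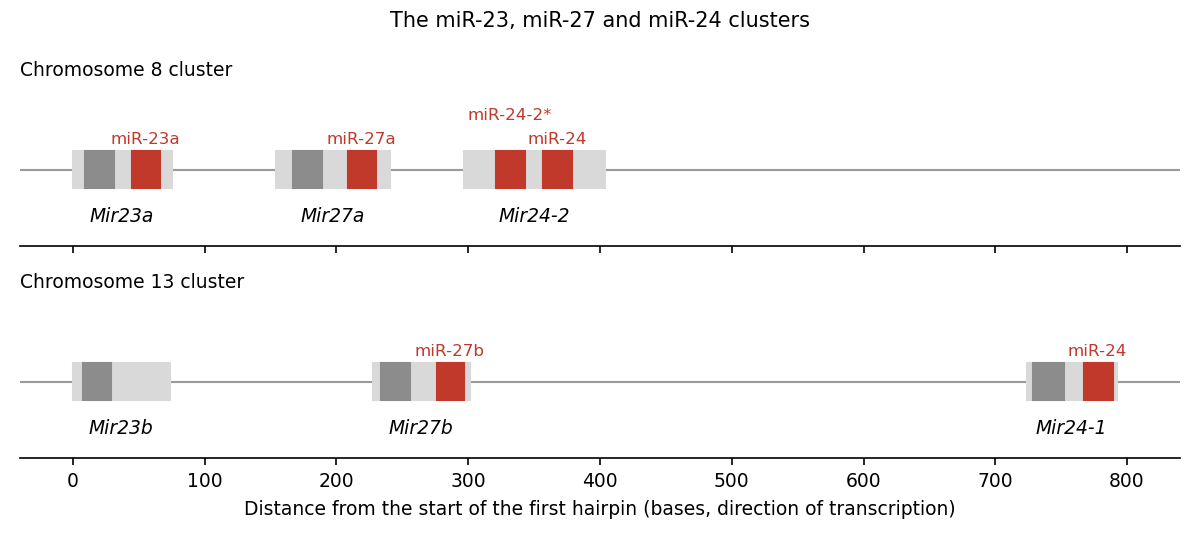
Position of each hairpin along the 2 clusters, in bases from the start of the first hairpin. Light boxes are hairpins, red boxes the arms read by member assays that matched a RefSeq position, and dark grey boxes the other annotated arms. miR-24 stands in both clusters.

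Each animal's RNA was run on a pair of TaqMan cards of 384 wells each. The readout is the Ct, the cycle number where a well's fluorescence passes a set level. More template gives a lower Ct, and 1 cycle is nominally a doubling. An assay was called detected below a Ct of 35, and 248 to 296 microRNAs were detected per animal. NTGb replicate 2 had the highest number detected, and its median absolute log2 difference from the other NTGb animals was 0.511 and 0.606, against 0.304 to 0.424 in the other pairs within groups. The labelled tissue carried its defining microRNAs, with miR-1 at Ct 20.5 to 21.3, miR-133a at 17.0 to 17.5, miR-133b at 20.7 to 21.1 and miR-206 at 18.0 to 18.9. Relative abundance below is a log2 value: an assay's Ct subtracted from the card's average Ct over its always-detected microRNAs, of which card A has 149 and card B 59. Values of different assays carry their own efficiencies, so levels are compared between groups for 1 assay only. In whole muscle, fewer cells of a type and less RNA per cell cannot be told apart.

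Of the 6 members, 5 were detected in every animal and were tested, and miR-23a was not tested. The miR-23a assay read Ct 34.0, 35.2 and 34.6 in MCK-PPARa mice, against 34.2, 34.0 and 37.0 in NTGa mice. It read 33.7, 34.9 and 35.3 in MCK-PPARb mice, against 38.6, 34.8 and 35.7 in NTGb mice. These values straddle the limit in every group, and miR-23a was detected in 7 of 12 animals. The other members gave far earlier signals: miR-24 lay at Ct 19.2 to 20.01, miR-27a at 24.8 to 25.9, miR-27b at 25.7 to 26.5, miR-24-2* at 25.5 to 27.2 and miR-23b at 28.0 to 29.3 over the 12 animals.

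The first comparison asked whether the family differed between PPARb mice and their littermates. All 5 tested members were higher on average in MCK-PPARb than in NTGb soleus, by 1.32-fold to 1.71-fold, and none passed the test after adjustment. MiR-24-2*, the strand opposite to miR-24 in the chromosome 8 hairpin, had relative abundances of 3.26, 2.81 and 2.74 in MCK-PPARb mice, against 2.34, 2.06 and 2.10 in NTGb mice. MiR-23b stood at 0.02, -0.48 and -0.32 in MCK-PPARb mice, against -0.86, -1.11 and -0.70 in NTGb mice. For both members each transgenic animal lay above every littermate. The log2 difference was 0.77 (SE 0.24, 95% interval 0.24 to 1.31) for miR-24-2*, with an unadjusted limma p of 0.00883 and an adjusted p of 0.490. For miR-23b it was 0.63 (SE 0.22, 95% interval 0.14 to 1.11), with an unadjusted limma p of 0.0158 and an adjusted p of 0.490. These were places 4 and 7 by p among the 268 assays tested.

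The differences of miR-27a and miR-27b were smaller. MiR-27a stood at 2.85, 2.98 and 2.90 in MCK-PPARb mice, against 2.54, 2.40 and 2.56 in NTGb mice, with no overlap. MiR-27b stood at 2.17, 2.31 and 2.10 in MCK-PPARb mice, against 1.98, 1.44 and 1.96 in NTGb mice, again with no overlap. The log2 differences were 0.41 (95% interval -0.01 to 0.84, limma adjusted p = 0.532) for miR-27a and 0.40 (95% interval -0.09 to 0.89, adjusted p = 0.558) for miR-27b. MiR-24, the common product of both clusters, stood at 8.94, 8.45 and 8.65 in MCK-PPARb mice, against 8.38, 7.74 and 8.63 in NTGb mice. Its groups overlapped, and its difference was 0.43 (95% interval -0.12 to 0.97, adjusted p = 0.558). NTGb replicate 2, the animal that stood apart, was the lowest NTGb animal for all 5 tested members. Its average Ct over the always-detected microRNAs of card A was 27.6, against 28.4 in each of the other NTGb animals, and that average enters every value of the card. On unscaled Ct values the order differed: miR-24 lay at Ct 19.2, 19.6 and 19.5 in MCK-PPARb mice, against 20.01, 19.8 and 19.8 in NTGb mice, with no overlap, while miR-27a lay at 25.3, 25.03 and 25.2 in MCK-PPARb mice, against 25.9, 25.2 and 25.9 in NTGb mice, with overlap. Without NTGb replicate 2 the scaled differences were 0.17 for miR-24, 0.22 for miR-27b and 0.36 for miR-27a.

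**Figure D2:**
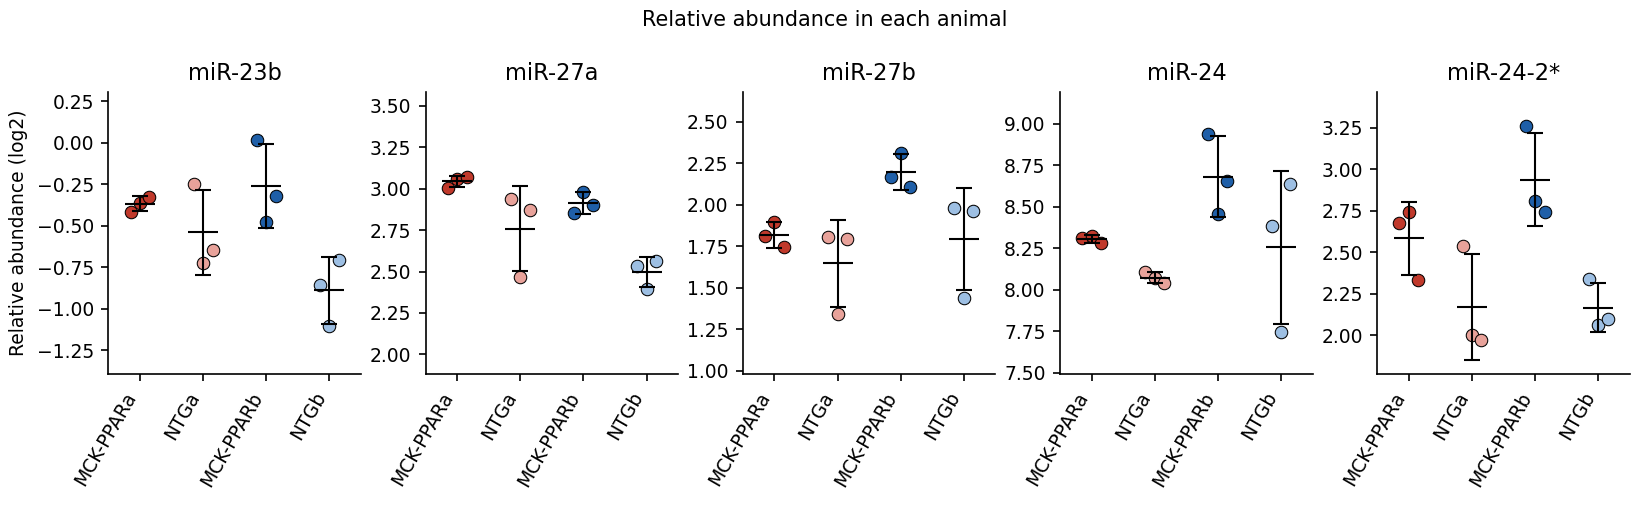
Relative abundance (log2, each panel on its own axis) of the 5 tested members in the 4 groups. Points are animals and bars the mean with its SD (n = 3). MCK-PPARb animals sit above every NTGb animal for all members but miR-24.

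The members' count was 0 of 5 called at an adjusted p under 0.05 in MCK-PPARb against NTGb, where limma called 0% of all tested assays. At an unadjusted p under 0.05, 2 of 5 members and 8.58% of all assays passed. Transgenic animals lay wholly above their littermates for 4 of 5 members, against 10.8% of all assays, and for 0 members wholly below them, against 4.48% (15.3% in either direction). The median log2 difference was 0.43 over the members and 0.02 over all tested assays, of which 51.1% were positive.

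The second comparison set PPARa mice against their littermates. All 5 members were again higher on average in MCK-PPARa than in NTGa soleus, by 1.13-fold to 1.33-fold, though miR-23b and miR-27b turned sign with U6 snRNA as reference and without scaling. MiR-27a stood at 3.01, 3.06 and 3.07 in MCK-PPARa mice, against 2.94, 2.47 and 2.87 in NTGa mice. MiR-24 stood at 8.31, 8.32 and 8.28 in MCK-PPARa mice, against 8.11, 8.07 and 8.04 in NTGa mice. The groups of these members did not overlap on this scale, and the SD of the transgenic animals was 0.033 for miR-27a and 0.022 for miR-24. On unscaled Ct values both overlapped, with miR-24 at 19.6 to 19.7 in MCK-PPARa mice and 19.6 to 19.9 in NTGa mice, and miR-27a at 24.8 to 25.1 in MCK-PPARa mice and 24.8 to 25.2 in NTGa mice. The log2 difference was 0.29 (SE 0.19, 95% interval -0.14 to 0.71, limma adjusted p = 0.520) for miR-27a and 0.23 (SE 0.25, 95% interval -0.31 to 0.78, adjusted p = 0.739) for miR-24. With U6 snRNA as reference these were 0.098 and 0.044, and without scaling 0.10 and 0.047.

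For the remaining members the groups overlapped. MiR-24-2* stood at 2.68, 2.74 and 2.33 in MCK-PPARa mice, against 2.54, 1.999 and 1.97 in NTGa mice, a difference of 0.41 (95% interval -0.12 to 0.95, limma adjusted p = 0.447). MiR-23b stood at -0.41, -0.36 and -0.32 in MCK-PPARa mice, against -0.25, -0.73 and -0.65 in NTGa mice, a difference of 0.17 (adjusted p = 0.797). MiR-27b stood at 1.81, 1.90 and 1.74 in MCK-PPARa mice, against 1.80, 1.34 and 1.79 in NTGa mice, a difference of 0.17 (adjusted p = 0.799). NTGa replicate 2 was the low animal for miR-27a and miR-27b, and without it their differences were 0.14 and 0.02. On unscaled Ct values, and with U6 snRNA as reference, miR-23b and miR-27b differed by -0.02 to -0.01.

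Limma called 0 of 5 members in MCK-PPARa against NTGa, where it called 2.24% of all tested assays, and 0 of 5 passed an unadjusted p under 0.05, against 16.4% of all assays. The 2 members whose transgenic animals lay above all littermates compare with 14.9% of all assays. The median log2 difference was 0.23 over the members and 0.12 over all tested assays, of which 58.6% were positive.

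**Figure D3:**
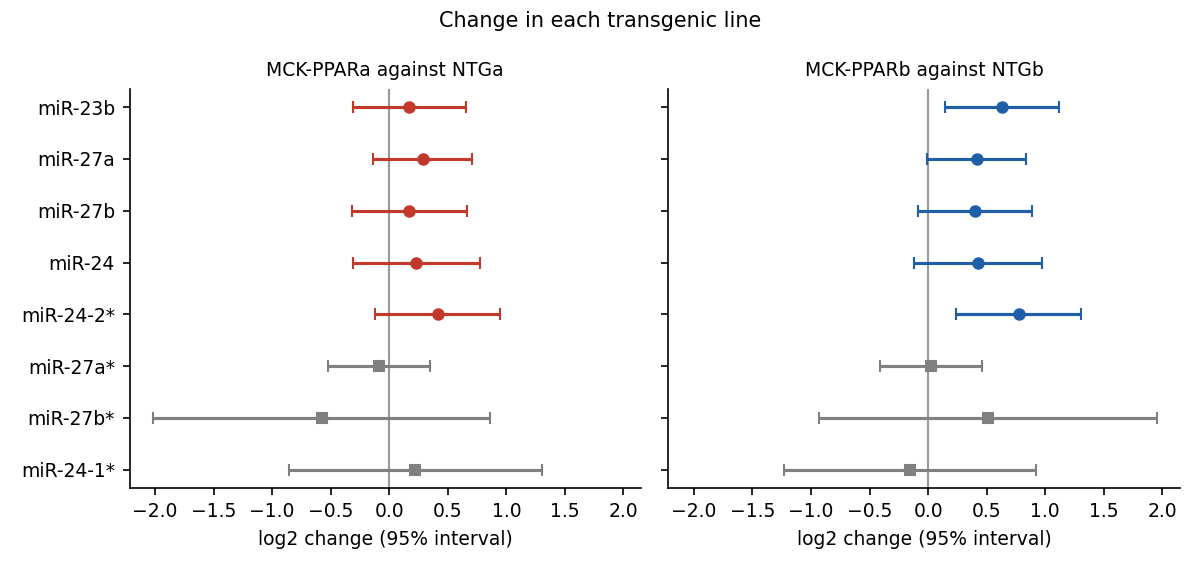
Log2 difference in relative abundance with its 95% interval, for MCK-PPARa minus NTGa and MCK-PPARb minus NTGb (n = 3 animals a group). Coloured circles are the tested members, and grey squares the opposite strands miR-27a*, miR-27b* and miR-24-1*. With the card's mean Ct as reference all 10 circles lie above 0. Squares of miR-27a* and miR-27b* for PPARa and of miR-24-1* for PPARb lie below 0. The intervals of miR-23b and miR-24-2* in the PPARb comparison are the only ones that leave out 0.

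**Figure D4:**
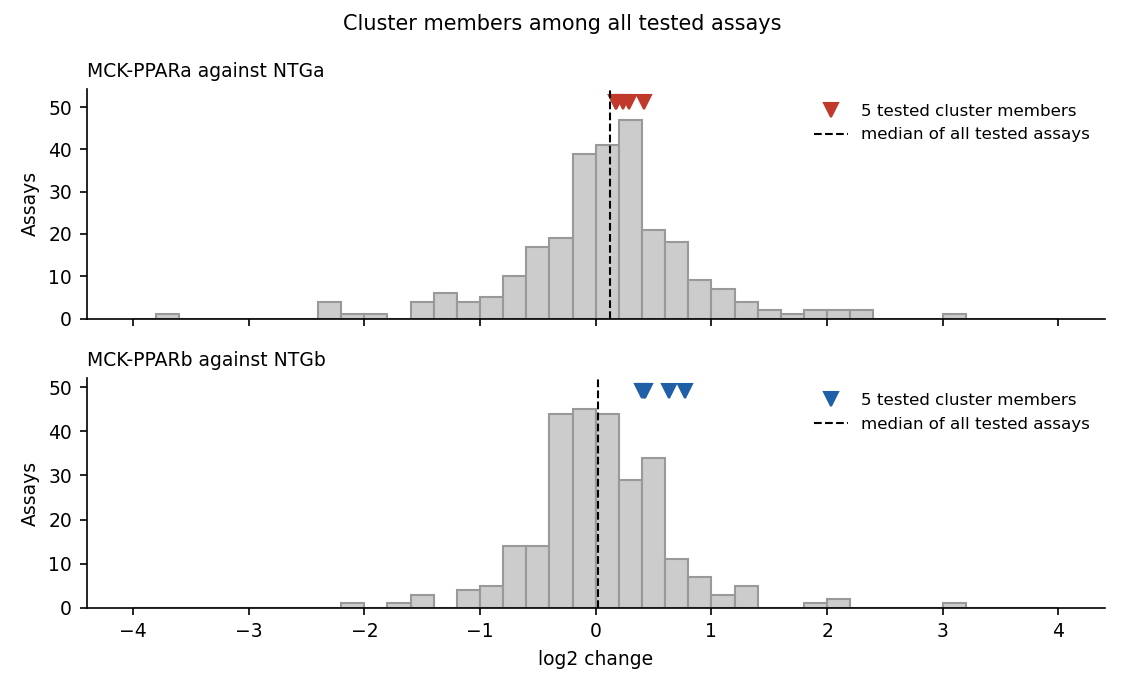
Log2 difference of all 268 tested assays for both transgenes, with the 5 members marked. The members lie within the range of the other assays and above the median of all tested assays.

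The difference between the transgene effects was tested directly, as the PPARa difference minus the PPARb difference. It was below 0 for all 5 members, where 53.7% of all assays were above it, but with the median reference miR-27a (0.17), miR-27b (0.071) and miR-24 (0.11) lay above 0. MiR-24 also lay above 0 with animal weights (0.025) and without NTGb replicate 2 (0.061). It was -0.46 (SE 0.31, 95% interval -1.14 to 0.23, limma adjusted p = 0.616) for miR-23b, -0.36 (95% interval -1.11 to 0.40, adjusted p = 0.790) for miR-24-2*, -0.23 (adjusted p = 0.878) for miR-27b, -0.19 (adjusted p = 0.892) for miR-24 and -0.13 (adjusted p = 0.892) for miR-27a. None of the 5 passed, against 1.12% of all assays, and 0 passed an unadjusted p under 0.05, against 10.4%. All 5 intervals spanned 0, so neither an equal nor an unequal response to the transgenes was shown.

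The order of the 4 groups was worked out for each member on scaled values. For miR-27b, miR-24 and miR-24-2* the MCK-PPARb animals had the highest mean and lay wholly above the MCK-PPARa animals, next in order, with log2 differences of -0.38, -0.38 and -0.35 for MCK-PPARa minus MCK-PPARb. The direction of miR-24-2* turned with the small RNA controls (0.076) and U6 snRNA (0.028) as reference, and on unscaled Ct values its groups overlapped, at 25.5 to 26.3 in MCK-PPARa mice and 25.6 to 26.2 in MCK-PPARb mice. For miR-27a the MCK-PPARa animals were highest and lay wholly above the MCK-PPARb animals, by 0.13. On unscaled Ct values its groups overlapped, at 24.83 to 25.05 in MCK-PPARa mice and 25.03 to 25.26 in MCK-PPARb mice. For miR-23b the MCK-PPARb mean was highest, and every pair of neighbours in its order overlapped. Below the top pair, neighbouring groups overlapped for every member. Limma called 0 of 5 members between MCK-PPARa and MCK-PPARb (2.99% of all assays), with 0 at an unadjusted p under 0.05 (13.8%). Of the members, 1 lay wholly higher in MCK-PPARa (13.8% of all assays) and 3 lay wholly lower (10.8%), which is 4 of 5 in either direction (24.6%). On unscaled Ct values only miR-27b and miR-24 lay apart, both with a higher Ct in MCK-PPARa. The unscaled share over all assays was not counted. The log2 difference was above 0 for 1 member and for 52.6% of all assays.

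The littermate groups were set against each other to compare the lines with no transgene. On scaled values NTGa and NTGb overlapped for all 5 members, against 19.4% of all assays that did not, 9.70% in each direction. On unscaled Ct values miR-23b alone did not overlap, at 28.0 to 28.6 in NTGa and 28.7 to 29.3 in NTGb mice. Its mean Ct was 29.02 in NTGb, against 28.33 in NTGa, 28.34 in MCK-PPARa and 28.35 in MCK-PPARb mice. The unscaled share over all assays was not counted. The log2 differences, NTGa minus NTGb, were 0.35 for miR-23b, 0.26 for miR-27a, 0.00 for miR-24-2*, -0.15 for miR-27b and -0.18 for miR-24, above 0 for 3 of 5 members and 47.8% of all assays. These directions depended on scaling: miR-27b and miR-24 were 0.40 and 0.37 with U6 snRNA and 0.20 and 0.16 without scaling, miR-27a was -0.030 with the median reference, and miR-24-2* turned negative with the median reference (-0.13) and under other alternatives. Limma called 0 of 5 members (1.87% of all assays), with 0 at an unadjusted p under 0.05 (15.7%). The difference of 0.35 for miR-23b between littermate groups is larger than its 0.17 between MCK-PPARa and NTGa. With U6 snRNA as reference, miR-23b passed between NTGa and NTGb, at 0.90 (adjusted p = 0.0397), where all assays had a median of 0.49.

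Members read on the same card can be set against each other within an animal, where scaling drops out. The Ct of miR-27b minus that of miR-27a was 1.19, 1.16 and 1.32 in MCK-PPARa mice, against 1.14, 1.12 and 1.08 in NTGa mice, so that the groups did not overlap. The difference was 0.11 cycles, with an exact permutation p of 0.1, the smallest that 3 animals against 3 allow, and an adjusted p of 0.6 over the 6 pairs of card A members. The other 5 pairs overlapped, with differences of -0.11 to 0.05 cycles. Of single assays on scaled values, 25.7% did not overlap between MCK-PPARa and NTGa, and 15.3% between MCK-PPARb and NTGb. The share over all pairs of card A assays was not counted. Between MCK-PPARb and NTGb mice no pair of 6 was without overlap. There the pairs with miR-23b differed by 0.20 to 0.23 cycles, towards more miR-23b, and the others by -0.03 to 0.01, with exact permutation adjusted p of 0.8 to 1.

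Among the 6 pairs, the Ct differences of miR-27a with miR-27b and of miR-23b with miR-24 separated the animals by line, with the transgene and without it. How many of all pairs of card A assays do so was not counted. Of single assays on scaled values, 19.4% did not overlap between NTGa and NTGb, and 24.6% between MCK-PPARa and MCK-PPARb. The Ct of miR-27b lay 1.08 to 1.32 cycles above that of miR-27a in the 6 animals of the PPARa line and 0.55 to 0.96 cycles above it in the 6 of the PPARb line, with no overlap. The gap was present with the transgene, at 0.51 cycles between MCK-PPARa and MCK-PPARb, and without it, at 0.41 cycles between NTGa and NTGb, with an exact permutation adjusted p of 0.2 each. The Ct of miR-24 minus that of miR-23b lay at -8.79 to -8.35 in the PPARa line and -9.34 to -8.85 in the PPARb line, again with no overlap. Its gap was 0.27 cycles between MCK-PPARa and MCK-PPARb and 0.53 cycles between NTGa and NTGb, with an exact permutation adjusted p of 0.2 each. MiR-24 against miR-27a showed 0.51 and 0.44 cycles in the same comparisons, with overlap between the littermate groups, and miR-27b against miR-23b showed 0.27 and 0.50 cycles, with overlap between the transgenic groups. Line, litter and any difference of assay run cannot be told apart here.

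**Figure D5:**
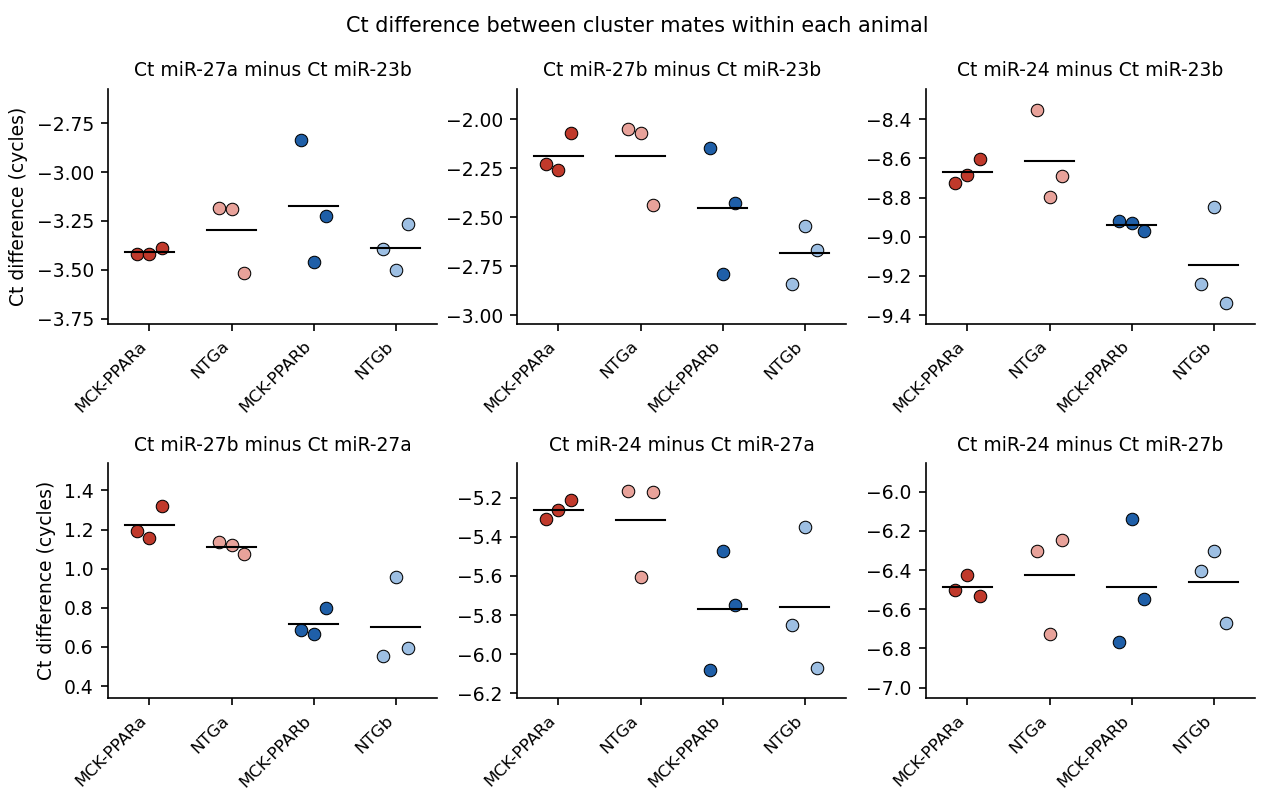
Ct difference within each animal for pairs of card A members, by group (points are animals, lines the mean, n = 3). In the miR-27a and miR-27b panel the 6 animals of the PPARa line sit at 1.08 to 1.32 cycles, above the 6 of the PPARb line at 0.55 to 0.96.

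The spread of a pair's Ct difference depended on whether the lines were pooled. Over all 12 animals it was smallest for miR-23b with miR-27a, at an SD of 0.191, and for miR-27b with miR-24, at 0.197, and miR-27a with miR-27b had 0.265. Within the lines miR-27a with miR-27b, near-identical in sequence and from different clusters, had the smallest SD of the 6 pairs, at 0.085 in the PPARa line and 0.147 in the PPARb line (n = 6 each). There miR-23b with miR-27a had 0.135 and 0.243, and miR-27b with miR-24 had 0.172 and 0.235. Each SD shares the RNA and the card of its animals and is a description.

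By the SD over all 12 animals, which also holds differences between the lines, the card A assays most like miR-23b outside the family were miR-140 (SD 0.173), miR-328 (0.216) and miR-331-3p (0.216), against a median of 0.538 over the card. Within the family, miR-27a was at place 2 of 148 for miR-23b, miR-24 at 10 and miR-27b at 15. For miR-27a the closest outside the family were miR-331-3p (0.107), miR-152 (0.175) and miR-125b-5p (0.200). Its family mates miR-23b, miR-27b and miR-24 were at places 3, 18 and 31 of 148. For miR-27b the closest outside were miR-133b (0.209), let-7d (0.229) and miR-191 (0.235). Its mates miR-24, miR-27a and miR-23b were at places 1, 8 and 15. For miR-24 the closest outside were miR-191 (0.172), miR-133b (0.193) and let-7d (0.220). Its mates miR-27b, miR-23b and miR-27a were at places 3, 8 and 24. On card B, miR-24-2* was most like miR-22 (0.248), miR-378* (0.282) and rno-miR-664 (0.290). There miR-27a* was at place 11 of 58 and miR-27b* at 44.

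The opposite strands of the same hairpins gave a second reading of each cluster. MiR-27a* stood at -1.22, -1.17 and -1.14 in MCK-PPARb mice, against -1.19, -1.14 and -1.28 in NTGb mice, a log2 difference of 0.02 (95% interval -0.41 to 0.46, limma adjusted p = 0.961). Its partner miR-27a lay above every littermate in each transgenic animal of that comparison. The miR-27a* level minus the miR-27a level was -4.08, -4.15 and -4.04 in MCK-PPARb mice, against -3.72, -3.54 and -3.84 in NTGb mice, without overlap, a difference of -0.39 with an exact permutation p of 0.1 and an adjusted p of 0.6 over 6 such tests. These strands were read on different cards, each scaled on its own, and on unscaled Ct values the groups overlapped. In MCK-PPARa against NTGa the same difference was -0.37 (exact permutation p = 0.3), with overlap. MiR-24-2* minus miR-24 differed by 0.35 (exact permutation p = 0.2) in MCK-PPARb against NTGb and 0.18 (p = 0.4) in MCK-PPARa against NTGa, with overlap in both. MiR-27b* minus miR-27b differed by 0.11 and -0.75 in the same comparisons, again with overlap in both.

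In MCK-PPARa against NTGa, miR-27a* differed by -0.09 (limma adjusted p = 0.870). MiR-27b* stood at -5.61, -2.89 and -2.76 in MCK-PPARa mice, with replicate 1 far below the others, against -2.62, -2.95 and -3.95 in NTGa mice. Its log2 difference was -0.58 (SE 0.65). In MCK-PPARb against NTGb it differed by 0.51 (SE 0.65). MiR-24-1* was detected in 9 of 12 animals, with 1 of 3 in NTGa and 3 of 3 in NTGb. Its log2 difference was 0.22 in MCK-PPARa against NTGa and -0.15 in MCK-PPARb against NTGb (SE 0.49 each). NTGa lay wholly below NTGb, by -1.20 (limma adjusted p = 0.285), as did 9.70% of all assays. NTGa replicates 2 and 3 stood at the card B floor. Rno-miR-24-1* was detected in 4 animals, and rno-miR-23a* gave no Ct in any animal.

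Of the microRNAs known to act on PPAR mRNAs, which include the miR-27 pair, all 6 were tested and 0 called by limma in either comparison. MiR-21 differed by 0.55 in MCK-PPARa and 0.14 in MCK-PPARb against littermates, miR-130a by 0.04 and 0.61, miR-10b by 0.30 and 0.36, and miR-130b by -0.05 and -0.30. The list's median was 0.23 for PPARa and 0.38 for PPARb, against 0.12 and 0.02 over all assays. The myogenesis list had 0 of 13 called, with medians of 0.22 and 0.01, and the angiogenesis list 0 of 12, with medians of 0.10 and -0.03.

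Markers of other cells were read beside the family's differences. MiR-451, the tested erythroid marker, differed by 0.58 in MCK-PPARa (limma adjusted p = 0.420) and 0.53 in MCK-PPARb (adjusted p = 0.579) against littermates. The endothelial marker miR-126-3p differed by 0.27 and -0.10, and miR-126-5p by -0.85 and -0.37. None of the lists for vessel wall (2 tested), smooth muscle and fibroblast (4), leukocyte (5), red cell (1), neural (2) or skeletal muscle (4) had a member called in either comparison. The medians for PPARa and PPARb were 0.08 and -0.03 for smooth muscle and fibroblast, 0.24 and -0.19 for leukocyte, 0.75 and 0.27 for neural, and 0.03 and 0.12 for skeletal muscle. The part of these cells in the family's differences was not tested.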

How the data were processed

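Total RNA of soleus from 12 mice was extracted with RNAzol B and read by TaqMan PCR over 40 cycles on a 7900HT instrument, per the labels' protocols. The authors deposited Ct values per well, which are the unit used here ("other": neither a count nor an intensity). Their software and threshold: not given in the sources used here. The 24 card columns were matched to samples by title, and 0 were left unmatched. Wells of 1 assay were averaged, and an empty well beside a called one was set to Ct 40. MiR-24-2* had 2 wells, which differed by a median of 0.0814 cycles and at most 0.513, and the other members had 1.

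Relative abundance was the card's mean Ct of always-detected microRNAs minus Ct, with undetected values set to a floor of -6.56 (card A) or -5.66 (card B). The 268 assays detected in every animal of some group were fitted with limma 3.58.1 in R 4.3.3 over all 12 animals (8 residual degrees of freedom), with Benjamini-Hochberg adjustment over all 268. A call is an adjusted p under 0.05. Single values used exact two-sided permutation tests, which cannot go below 0.1 with 3 against 3. The likeness of 2 assays was the SD over 12 animals of their difference on 1 card, and the 3 most like assays were named. Fits were tested on simulated data, whose outcome is not given here. Members and gene lists (PPAR mRNAs, myogenesis, angiogenesis and cell types) were chosen with earlier results of these data known. Same-numbered animals of a transgenic and its littermate group correlated at -0.29 to 0.22, so numbers were not used as pairs.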

Additional observations from a re-analysis of the deposited data

How the results depend on the processing

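Each comparison of the 5 tested members was repeated with other scaling references, detection limits, filters, wells, spread models and control animals, and with each animal left out. Of 560 member values, 532 kept their sign and their side of the threshold. In MCK-PPARb against NTGb all 110 kept their sign, with adjusted p of 0.113 to 0.837, and in MCK-PPARa against NTGa 106 of 110 did, with 0.209 to 0.991. The cause of the changes below was not tested.

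Scaling moved the most. In MCK-PPARb against NTGb the members' median was 0.74 with U6 snRNA, where all assays had a median of 0.33, and 0.24 with the median reference. In MCK-PPARa against NTGa it was 0.04 with U6 snRNA, where miR-23b and miR-27b were -0.015 and -0.016, and without scaling they were -0.013 and -0.014. For the difference of the effects, the median reference gave 0.17 for miR-27a, 0.071 for miR-27b and 0.11 for miR-24, and animal weights gave 0.025 for miR-24. Between NTGa and NTGb, U6 snRNA brought 1 member past the threshold (miR-23b, 0.90) and gave 0.40 for miR-27b and 0.37 for miR-24, and no scaling gave 0.20 and 0.16. There the median reference gave -0.030 for miR-27a and -0.13 for miR-24-2*, and miR-24-2* was -0.049 with a limit of Ct 32, -0.050 with no limit, -0.12 from the first well and -0.10 with animal weights. Between MCK-PPARa and MCK-PPARb, miR-24-2* was 0.076 with the small RNA controls and 0.028 with U6 snRNA, and miR-23b was 0.0079 without scaling.

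With each animal left out in turn, NTGa minus NTGb ran from -0.18 to 0.11 for miR-24-2* and from -0.33 to 0.0029 for miR-27b, the difference of effects for miR-24 from -0.37 to 0.061, and MCK-PPARa minus MCK-PPARb for miR-23b from -0.21 to 0.030. Pairs without overlap, of 6, numbered 1 to 3 for MCK-PPARa against NTGa and 0 to 2 for MCK-PPARb against NTGb. They numbered 3 to 5 for NTGa against NTGb and for MCK-PPARa against MCK-PPARb. The lower ends are the counts with all animals, and leaving an animal out can only keep or raise such a count. The share over all pairs of card A assays was not counted. Calls over all assays ran from 3 to 9, 0 to 1, 1 to 7, 0 to 29 and 5 to 12 in the 5 comparisons over all alternatives. With the replicate number as a block, 9 assays were called in MCK-PPARa against NTGa and 0 members in any comparison. Fitting only the groups compared was not run for the difference of effects, which needs all 4.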
